A study of Homo sapiens with 4 samples.

Results

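Collagen chain genes, the protein-coding genes that each encode 1 alpha chain of a collagen, were followed in HGC-27 cells with and without knockdown of USP47. Members were chosen by symbol alone, as COL, a number, A and a number. The rule found 44 genes among the 63568 gene identifiers in the count tables. Grouped by the structure of their products, they comprised 11 fibrillar chains, 6 chains of basement membrane type IV collagen, 10 fibril-associated chains (FACIT collagens), 4 transmembrane chains and 13 others. HGC-27 is an established human gastric carcinoma cell line. Cells of the Control shRNA group had been infected with lentivirus carrying a scrambled shRNA, and those of the USP47 shRNA group with lentivirus carrying an shRNA against USP47, a deubiquitinating enzyme. The shRNAs were carried on the pLKO.1 vector and the cells were selected with puromycin, so both groups share infection and selection. The paper describes 2 independent shRNAs against USP47. The labels do not say which hairpin each library carries, so the knockdown libraries may carry the same hairpin or different ones. No library expresses a hairpin-resistant USP47. Each group had 2 polyA RNA libraries, named here as control 1 and 2 and knockdown 1 and 2. Nothing in the labels ties a replicate to a separate culture or infection, so the p-values below measure the spread between these libraries. That spread may be technical, and after knockdown a difference between hairpins cannot be told apart from it.

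A collagen molecule is a trimer of alpha chains wound into a triple helix. Some collagens are built from a single kind of chain, as type III is from COL3A1, and others from partner chains in fixed proportions, as most type I is from COL1A1 and COL1A2. Fibrillar collagens assemble outside the cell into cross-striated fibrils that give tissue its tensile strength, FACIT collagens sit on the surface of those fibrils, and type IV collagen forms the sheet of the basement membrane. In tumours most fibrillar collagen comes from fibroblasts, although cancer cells with mesenchymal features can express it too.

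Library totals lay between 15649899 and 20140273 counts. USP47 itself stood at 80.0 and 66.1 CPM (counts divided by the TMM-scaled library size) in the controls and at 36.0 and 21.5 CPM after knockdown, so that 49.3% of the control mean was retained in knockdown 1 and 29.5% in knockdown 2 (log2 fold change -1.34, SE 0.21, adjusted p = 0.00362). Each adjusted p given here came from edgeR's quasi-likelihood test (Benjamini-Hochberg, over all 21932 genes kept by the filter on low counts), and a gene was called changed where it was under 0.05. Of these genes 16.1% were called, 6.52% higher and 9.56% lower after knockdown.

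HGC-27 is labelled as a carcinoma line, and the epithelial markers were nearly silent. KRT18 and KRT19 had at most 1 count in any library, and 9 gastric epithelial markers together summed to 6.07 and 5.20 CPM in the controls and 5.19 and 4.67 CPM after knockdown. One of them, EPCAM, was called lower, with 12 and 11 counts in the controls and 3 and 3 after knockdown (log2 fold change -1.84, SE 0.53, adjusted p = 0.0418). The intermediate filament gene VIM reached 353 to 502 CPM, and the fibroblast-associated proteoglycan genes DCN and LUM 172 to 224 CPM and 77.4 to 100.3 CPM. The 4 mesenchymal markers, VIM included, summed to 576 and 583 CPM in the controls and to 386 and 544 CPM after knockdown, with FN1 and THY1 called lower. VIM gave most of these sums, at 468 and 471 CPM against 353 and 502 CPM, and its groups overlapped. CDH2, the remaining marker, was nearly silent, with 3 and 3 counts in the controls and 10 and 3 after knockdown, and was not tested. The 5 fibroblast markers, DCN and LUM included, summed to 434 and 420 CPM against 417 and 512 CPM, with PDGFRA and FAP called lower. S100A4 and DCN went the other way without a call, with both knockdown libraries above both controls. S100A4 had 91.9 and 104 CPM in the controls and 107 and 169 CPM after knockdown. Markers of leukocytes summed to at most 1.05 CPM and those of endothelium to at most 0.561 CPM. The markers shared no direction, the collagen changes below ran both ways, and any link between them was not tested. In bulk RNA, fewer cells of a type and less RNA per cell cannot be told apart.

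The collagen transcripts of HGC-27 were mainly those of fibrillar types III, I, V and XI. In the controls 7 of the 44 genes had a mean above 100 CPM, 17 above 10 CPM, 14 from 1 to 10 CPM and 13 at or below 1 CPM. Levels of different genes were compared as CPM per kb of exon, with the length recovered from the deposited counts and FPKM. On this scale the control mean of COL3A1 was 249.8 CPM per kb, and those of COL1A1, COL11A1, COL5A2, COL6A1 and COL5A1 were 94.8, 54.6, 44.1, 36.3 and 25.4 CPM per kb. Below them came COL16A1 at 19.7, COL9A3 at 14.0, COL6A2 at 12.8 and COL4A5 at 8.60 CPM per kb. Next were COL27A1 at 6.60, COL12A1 at 4.47, COL1A2 at 3.68, COL14A1 at 2.86 and COL15A1 at 2.33 CPM per kb. No neighbours in this order overlapped between the control libraries until COL15A1 and COL7A1. These are averages of 2 libraries, and the authors removed duplicate reads, which lowers the counts of abundant genes such as COL3A1 and COL1A1 most.

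**Figure D1:**
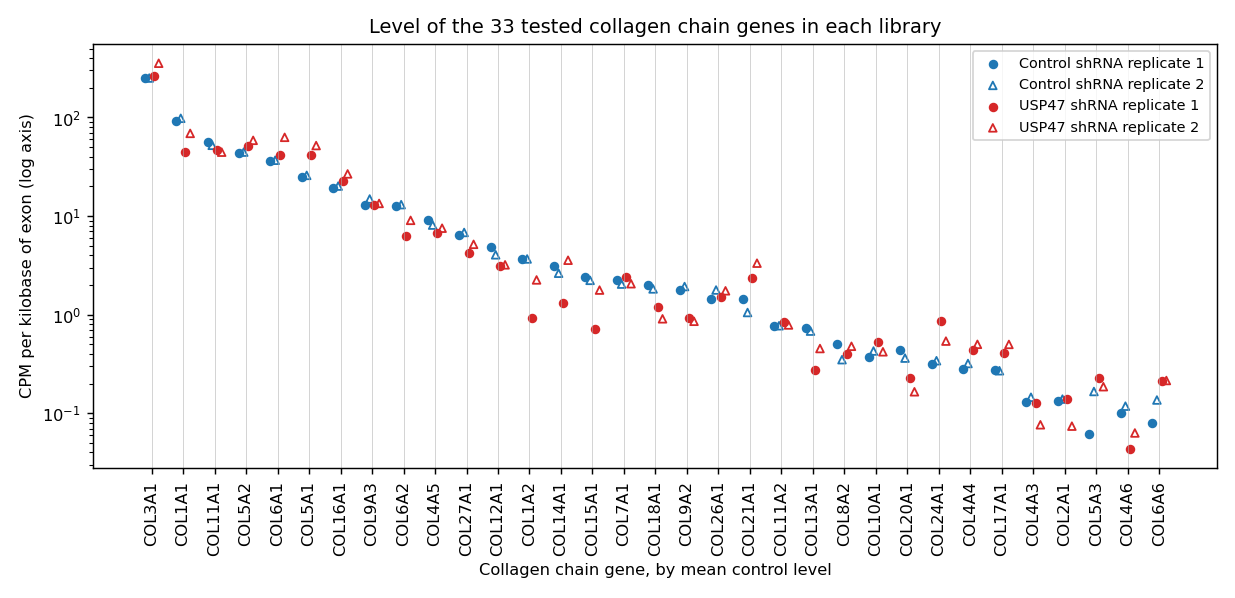
Level of collagen chain genes in each library, as CPM per kb of exon on a log axis, for the 33 genes tested, with blue for Control shRNA, red for USP47 shRNA, circles for replicate 1 and triangles for replicate 2. COL3A1 stood highest in every library, and the red points of COL5A1 lie above and those of COL1A1 below the blue.

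Of the 44 genes, 33 passed the filter and 11 did not, with at most 9 counts in any library. After knockdown 3 of the 33 were called higher (9.09%, where the share over all genes tested was 6.52%) and 9 lower (27.3%, where it was 9.56%), while 21 were not called. The counts of members higher and lower moved with the fit, as did those over all genes. They were 2 and 4 without control 1, where 1.38% and 3.87% of all genes tested were called higher and lower, and 3 and 6 without control 2 (1.79% and 4.43%). They were 11 and 9 without knockdown 1 (16.6% and 15.4%), and 4 and 13 without knockdown 2 (12.4% and 15.0%). Members that gained a call without knockdown 1 were COL3A1, COL5A2, COL6A1, COL6A6, COL4A4, COL14A1, COL16A1 and COL17A1 as higher and COL11A1 as lower. Without knockdown 2 they were COL6A6 as higher and COL4A5, COL4A6, COL14A1 and COL15A1 as lower, and without either control COL15A1 as lower. The median log2 fold change over the 33 was -0.08, and over all genes tested -0.0083. Both knockdown libraries lay above both controls for 12 members and below them for 14, and the libraries overlapped for 7. Over all genes tested, both lay above in 29.3% and both below in 31.7%. The tested members had a median average log2 CPM of 3.67, and all genes tested 3.15. Their changes therefore ran in both directions. Calls differed between chains of the same class and the same collagen type, as described below, and no test compared chains with each other.

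**Figure D2:**
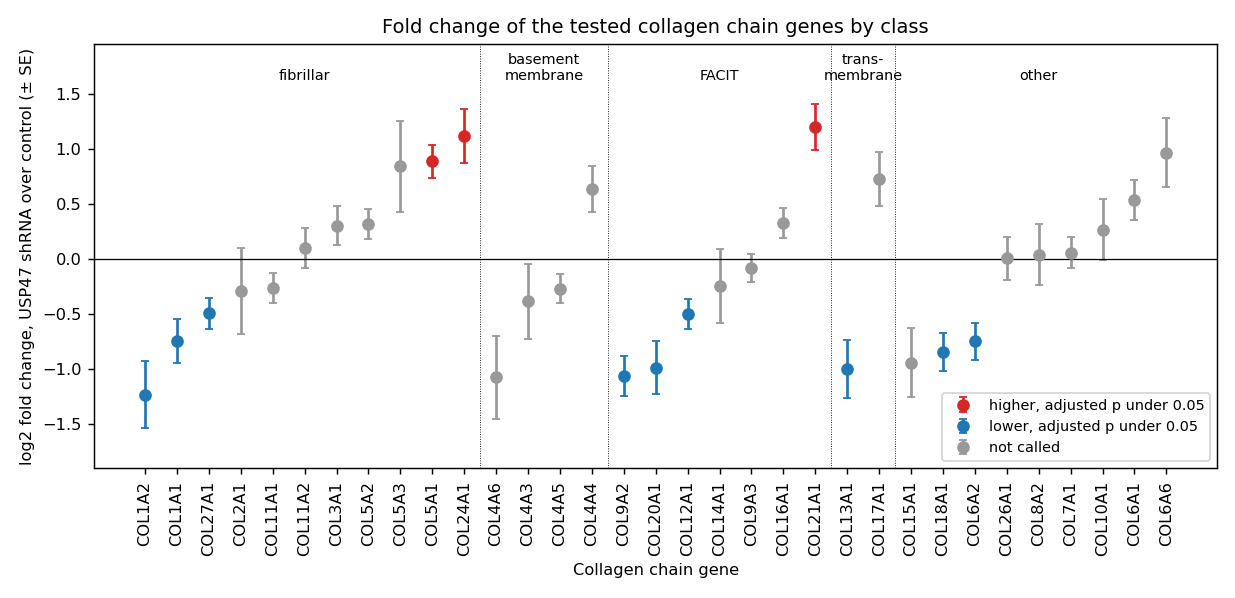
Log2 fold change, USP47 shRNA over Control shRNA, of the 33 collagen chain genes tested, by class, with bars of 1 SE from edgeR's quasi-likelihood fit. The 3 genes called higher (COL5A1, COL24A1 and COL21A1) and the 9 called lower are coloured, and each class holds genes on both sides of 0.

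Among the 11 fibrillar chains, COL5A1 and COL24A1 rose and COL1A1, COL1A2 and COL27A1 fell, with a class median of 0.10. COL1A1 encodes the alpha 1 chain of type I collagen, the chief collagen of bone, tendon and skin. It had 898 and 963 CPM in the controls and 434 and 677 CPM after knockdown, a fall from a mean of 930.4 ± 45.4 to 555 ± 172 (SD, n = 2; log2 fold change -0.75, SE 0.20, adjusted p = 0.0309). Both knockdown libraries lay below both controls, and knockdown 1, which kept more USP47, lay lower. COL1A2, the partner chain, had 41.0 and 40.9 CPM in the controls and 10.3 and 25.1 CPM after knockdown (log2 fold change -1.23, SE 0.30, adjusted p = 0.0222). DESeq2's Wald test did not call COL1A2 (adjusted p = 0.192). Again knockdown 1 was the lower library. Without it the fold changes of COL1A1 and COL1A2 were -0.45 and -0.70, and without knockdown 2 they were -1.10 and -1.99. COL1A1 was no longer called when either control was left out (adjusted p = 0.135 without control 1 and 0.132 without control 2). COL27A1, a fibrillar chain of cartilage, had 89.3 and 95.3 CPM in the controls and 58.8 and 72.3 CPM after knockdown (log2 fold change -0.50, SE 0.14, adjusted p = 0.0369). It lost its call without control 1 (adjusted p = 0.237) or control 2 (0.29).

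COL5A1 moved the other way. It encodes the alpha 1 chain of type V collagen, which is buried in type I fibrils and limits their diameter. Its levels were 280 and 289 CPM in the controls and 471 and 580 CPM after knockdown, a rise from a mean of 285 ± 6.60 to 525 ± 77.3 (SD, n = 2; log2 fold change 0.88, SE 0.15, adjusted p = 0.00479). The groups lay well apart, and knockdown 2 was the higher library. Without control 1 the adjusted p was 0.100. COL24A1, a fibrillar chain known from developing bone, was a low transcript with 3.01 and 3.26 CPM in the controls and 8.22 and 5.16 CPM after knockdown (log2 fold change 1.11, SE 0.24, adjusted p = 0.0145). Without knockdown 1 its fold change was 0.72. In genome build GRCh37 COL5A1 spans chr9:137533649-137736689 on the plus strand, COL1A1 chr17:48261462-48278993 on the minus strand and COL1A2 chr7:94024207-94060539 on the plus strand. The lncRNA COL5A1-AS1 on the opposite strand of COL5A1 had 37 counts in all 4 libraries together. The upstream sequence of COL5A1 is shown because it is the called member of highest level that rose and has an entry in the RefSeq promoter table. It is the 250 bases before the gene's start, chr9:134641553-134641802 on the plus strand of GRCh38.p14, with the GC box (GGGCGG, on either strand) in capitals. It holds 2 GC boxes and none of the other motifs searched, which are named further on.
COL5A1: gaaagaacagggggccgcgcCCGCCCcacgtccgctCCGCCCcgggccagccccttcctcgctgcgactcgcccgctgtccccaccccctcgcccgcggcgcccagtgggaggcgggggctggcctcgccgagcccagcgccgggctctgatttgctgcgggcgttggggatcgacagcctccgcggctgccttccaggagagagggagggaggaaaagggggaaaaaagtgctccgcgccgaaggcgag

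The other fibrillar chains were not called. COL3A1, the single chain of type III collagen, had 1694 and 1711 CPM in the controls and 1781 and 2416 CPM after knockdown (log2 fold change 0.30, SE 0.18, adjusted p = 0.273). Both knockdown libraries lay above both controls, and the gap between the knockdown libraries exceeded the difference from control to knockdown 1. Its fold change was 0.07 without knockdown 2 and 0.51 without knockdown 1, where it was called (adjusted p = 4.04e-05). COL5A2, the partner of COL5A1, had 313 and 318 CPM in the controls against 368 and 419 CPM (log2 fold change 0.32, adjusted p = 0.141). COL11A1, a type XI chain that nucleates cartilage fibrils and is also made in many carcinomas' stroma, had 471 and 431 CPM against 383 and 367 CPM (log2 fold change -0.27, adjusted p = 0.206). COL11A2, its partner, stayed between 5.13 and 5.72 CPM. COL2A1 had 7 to 19 counts in a library, and COL5A3 0.413 and 1.12 CPM in the controls against 1.54 and 1.25 CPM (log2 fold change 0.84, adjusted p = 0.189).

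Type IV collagen showed no called member among the 4 chains tested, whose median log2 fold change was -0.33. In the fit with the replicate number as a block, COL4A4 (adjusted p = 0.0119), COL4A5 (0.0309) and COL4A6 (0.0414) were called. Its genes lie in head-to-head pairs, and the pairs were used unequally. COL4A1 and COL4A2, the ubiquitous basement membrane chains, had 3, 0, 1 and 1 and 3, 1, 6 and 9 counts in controls 1 and 2 and knockdowns 1 and 2. COL4A1 was at or under the floor of 3 counts that a count of 0 allows, so it did not mark these cells. COL4A2 was above its controls in both knockdown libraries but failed the filter on low counts. No fold is given for either. Since their annotated spans overlap by 1345 bases on opposite strands, counts there could not be assigned without knowledge of the strand setting. COL4A5, a chain of specialised basement membranes, carried nearly all of the type IV level with 79.5 and 70.7 CPM in the controls and 58.8 and 65.8 CPM after knockdown (log2 fold change -0.27, SE 0.13, adjusted p = 0.183). Its head-to-head neighbour COL4A6 had 17 and 23 counts in the controls and 9 and 9 after knockdown (log2 fold change -1.08, SE 0.38, adjusted p = 0.0798). COL4A4 had 2.77 and 3.16 CPM against 4.33 and 4.95 CPM (log2 fold change 0.63, adjusted p = 0.0641), and COL4A3, which starts 171 bases away in GRCh37, had 1.18 and 1.33 CPM against 1.15 and 0.697 CPM (log2 fold change -0.39, adjusted p = 0.466).

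The nearest listed starts of COL4A5 and COL4A6 lie 380 bases apart in GRCh38.p14. Their upstream windows are shown because these neighbouring starts accompany levels of 75.1 ± 6.21 CPM for COL4A5 and 1.09 ± 0.12 CPM for COL4A6 (SD, n = 2, controls). The COL4A5 window is chrX:108439588-108439837 on the plus strand and the COL4A6 window chrX:108439459-108439708 on the minus strand, and they share 121 bases. Each is written in the direction of its own gene with CCAAT or its reverse complement ATTGG in capitals. COL4A5 holds 2 and COL4A6 holds 3, and the 2 that lie in the shared bases are the same letters read from opposite strands. Neither window shown holds a match to the other motifs searched. Another COL4A6 window in the RefSeq promoter table, chrX:108438423-108438672, has 1 GC box and no CCAAT and is not printed.
COL4A5: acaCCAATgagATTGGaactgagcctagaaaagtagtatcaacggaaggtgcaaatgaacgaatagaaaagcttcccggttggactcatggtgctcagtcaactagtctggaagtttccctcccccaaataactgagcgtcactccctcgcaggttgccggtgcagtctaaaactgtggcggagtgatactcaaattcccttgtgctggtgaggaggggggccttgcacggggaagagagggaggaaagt
COL4A6: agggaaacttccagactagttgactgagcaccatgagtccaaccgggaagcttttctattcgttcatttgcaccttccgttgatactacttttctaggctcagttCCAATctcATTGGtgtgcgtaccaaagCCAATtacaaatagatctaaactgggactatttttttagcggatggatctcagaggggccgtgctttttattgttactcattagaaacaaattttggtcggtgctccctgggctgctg

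Of the 7 FACIT chains tested, COL21A1 rose and COL9A2, COL12A1 and COL20A1 fell, with a median of -0.25. COL21A1 encodes the chain of a fibril-associated collagen of vessel walls. It had 10.1 and 7.44 CPM in the controls and 16.8 and 23.5 CPM after knockdown (log2 fold change 1.20, SE 0.21, adjusted p = 0.0052), a mean of 8.79 ± 1.91 against 20.2 ± 4.75 (SD, n = 2). COL9A2, a chain of the cartilage collagen type IX, had 7.43 and 8.0 CPM in the controls and 3.80 and 3.55 CPM after knockdown (log2 fold change -1.06, SE 0.18, adjusted p = 0.00508). The libraries of each group lay close together and the groups lay apart. COL12A1, which bridges fibrils in tendon and other dense tissue, had 61.1 and 50.5 CPM in the controls and 39.1 and 39.9 CPM after knockdown (log2 fold change -0.50, SE 0.14, adjusted p = 0.0346), and its call was lost without control 1 (adjusted p = 0.512) or control 2 (0.0955). COL20A1 had 4.78 and 3.98 CPM in the controls and 2.50 and 1.81 CPM after knockdown (log2 fold change -0.99, SE 0.24, adjusted p = 0.0211), and its call was lost without control 1 (adjusted p = 0.146).

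COL9A3, the type IX partner of COL9A2, had 63.2 and 72.0 CPM in the controls and 63.0 and 64.9 CPM after knockdown (log2 fold change -0.08, adjusted p = 0.704). Its span overlaps TCFL5 on the opposite strand, which had 1369 counts over the 4 libraries, so part of its count may be shared if reads were counted without strand. The remaining partner, COL9A1, had at most 2 counts. COL16A1 was the most abundant FACIT chain, with 180.1 and 188 CPM in the controls and 212 and 251 CPM after knockdown (log2 fold change 0.33, adjusted p = 0.132). COL14A1 had 26.5 and 22.5 CPM against 11.3 and 30.5 CPM, so that knockdown 1 lay below and knockdown 2 above the controls (log2 fold change -0.25, adjusted p = 0.65). It was called in opposite directions when either was left out, at 0.33 without knockdown 1 (adjusted p = 0.0465) and -1.11 without knockdown 2 (9.6e-12). The upstream window of COL9A2 is shown as that of a FACIT chain that fell, chr1:40317287-40317536 on the minus strand of GRCh38.p14. Capitals mark 3 GC boxes, of which 2 overlap by 1 base, and 1 CAGGTG, the E-box bound by zinc finger repressors of the SNAIL and ZEB families.
COL9A2: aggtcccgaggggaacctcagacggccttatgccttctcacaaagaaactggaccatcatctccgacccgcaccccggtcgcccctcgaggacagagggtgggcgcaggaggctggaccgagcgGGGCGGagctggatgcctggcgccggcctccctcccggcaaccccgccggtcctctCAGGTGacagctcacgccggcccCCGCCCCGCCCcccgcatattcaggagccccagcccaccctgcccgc

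COL13A1, a transmembrane collagen of adhesion sites and the neuromuscular junction, fell from 4.24 and 3.98 CPM to 1.59 and 2.65 CPM (log2 fold change -0.998, SE 0.26, adjusted p = 0.0295). It was called in a single one of the 4 fits that left out a library, the one without knockdown 2, with adjusted p = 0.101, 0.0594 and 0.0726 without control 1, control 2 and knockdown 1. Its fold change without knockdown 1 was -0.62. COL17A1, the hemidesmosomal collagen of epithelium, had 1.77 and 1.73 CPM in the controls and 2.64 and 3.21 CPM after knockdown (log2 fold change 0.72, adjusted p = 0.0708). COL23A1 and COL25A1 had at most 8 counts.

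Type VI collagen forms beaded microfilaments around cells from COL6A1, COL6A2 and a further chain. COL6A2 was called lower, while COL6A1 had a fold change of the other sign without a call. COL6A2 had 67.9 and 70.3 CPM in the controls and 33.8 and 48.7 CPM after knockdown (log2 fold change -0.75, SE 0.17, adjusted p = 0.0157; without knockdown 1 the fold change was -0.50). COL6A1 had 191 and 196 CPM in the controls and 224 and 336 CPM after knockdown (log2 fold change 0.53, SE 0.18, adjusted p = 0.0725). Its fold change was 0.80 without knockdown 1, where it was called, and 0.21 without knockdown 2. Both genes lie on chromosome 21, COL6A1 at chr21:47401684-47424964 and COL6A2 at chr21:47518026-47552762 of GRCh37, both on the plus strand. For the further chain, COL6A3 had 1 to 6 counts and COL6A5 at most 2, while COL6A6 had 0.766 and 1.33 CPM in the controls and 2.07 and 2.09 CPM after knockdown (log2 fold change 0.96, adjusted p = 0.0614). The upstream window of COL6A2 is shown as that of the partner that fell, chr21:46097862-46098111 on the plus strand of GRCh38.p14. Capitals mark 4 GC boxes and 1 TATAAA.
COL6A2: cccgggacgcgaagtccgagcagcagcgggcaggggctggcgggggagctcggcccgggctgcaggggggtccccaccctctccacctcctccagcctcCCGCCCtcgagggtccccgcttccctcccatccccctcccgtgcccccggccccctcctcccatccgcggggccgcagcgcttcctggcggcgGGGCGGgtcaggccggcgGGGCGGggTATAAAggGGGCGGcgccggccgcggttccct

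COL18A1, whose product is a basement membrane proteoglycan and the source of endostatin, fell from 16.9 and 15.5 CPM to 10.1 and 7.73 CPM (log2 fold change -0.85, SE 0.17, adjusted p = 0.0104), and its call was lost without control 1 (adjusted p = 0.0625). It overlaps SLC19A1 on the opposite strand, a gene with 2928 counts over the 4 libraries. COL15A1, a relative of COL18A1 in vessel and muscle basement membrane zones, had 16.1 and 14.8 CPM in the controls and 4.71 and 11.8 CPM after knockdown (log2 fold change -0.94, SE 0.31, adjusted p = 0.0663). Again both knockdown libraries lay below both controls with knockdown 1 the lower. The fold change of COL15A1 was -0.38 without knockdown 1 (adjusted p = 0.061) and -1.70 without knockdown 2, and it was called without knockdown 2, without control 1 (0.0349) and without control 2 (0.0085). COL7A1, which forms the anchoring fibrils of skin, stayed between 22.6 and 26.5 CPM (log2 fold change 0.06, adjusted p = 0.823). COL8A2, COL10A1 and COL26A1 had log2 fold changes of 0.04, 0.26 and 0.0034, none of them called, and COL10A1 overlaps NT5DC1 on the opposite strand, which had 1053 counts. Over the 250-base upstream windows of GRCh38.p14, 32 of the 44 genes had 44 windows in the RefSeq table, 9 of the 12 called genes among them. A GC box was found in 24 of these 44 windows (54.5%, against 42.6% of 35116 windows of all genes), CCAAT in 12 (27.3% against 32.0%), TATAAA in 8 (18.2% against 10.7%) and CAGGTG in 5 (11.4% against 17.5%), on both strands. Some genes had more than 1 window, and those of COL5A1 overlap almost wholly, so windows are not independent. Counted by gene, 21 of 32 had a GC box, 11 CCAAT, 7 TATAAA and 5 CAGGTG, and no such share was computed over all genes. The median GC content was 64.2% in the members' windows and 58.0% in all.

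Partner chains were also set against each other as a ratio within each library, which does not depend on library scaling. The pairs were chosen after the levels had been seen, and with 2 libraries against 2 the smallest two-sided exact permutation p is 0.333, so the ratios are given without a test. The COL6A1 to COL6A2 ratio of CPM per kb was 2.84 and 2.82 in the controls and 6.69 and 6.95 after knockdown. The COL9A3 to COL9A2 ratio was 7.31 and 7.73 against 14.3 and 15.7. For these pairs the difference between groups was far larger than the gap between libraries of a group. The ratio of COL5A1 to COL5A2 was 0.572 and 0.581 in the controls and 0.818 and 0.885 after knockdown. The COL1A1 to COL1A2 ratio was 24.9 and 26.7 against 47.9 and 30.6, most of the difference lying in knockdown 1. COL11A1 to COL11A2 was the pair whose ratio was lower after knockdown, at 74.9 and 67.6 against 54.6 and 56.6.

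The type IV ratios rested on low counts in 1 partner. COL4A5 to COL4A6 was 90.3 and 68.7 in the controls and 155 and 119 after knockdown, and COL4A4 to COL4A3 was 2.17 and 2.20 against 3.46 and 6.55. Between collagen types, COL3A1 to COL1A1 was 2.72 and 2.56 in the controls and 5.91 and 5.14 after knockdown. COL5A1 to COL1A1, the regulator of fibril diameter set against the main fibril chain, was 0.274 and 0.264 in the controls and 0.953 and 0.753 after knockdown. In none of these pairs did the groups overlap. Single genes often separate so too, with both knockdown libraries above both controls in 29.3% of genes tested and below in 31.7%. The pairs were picked with the levels known, so their separation was not read as a result about partner chains.

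**Figure D3:**
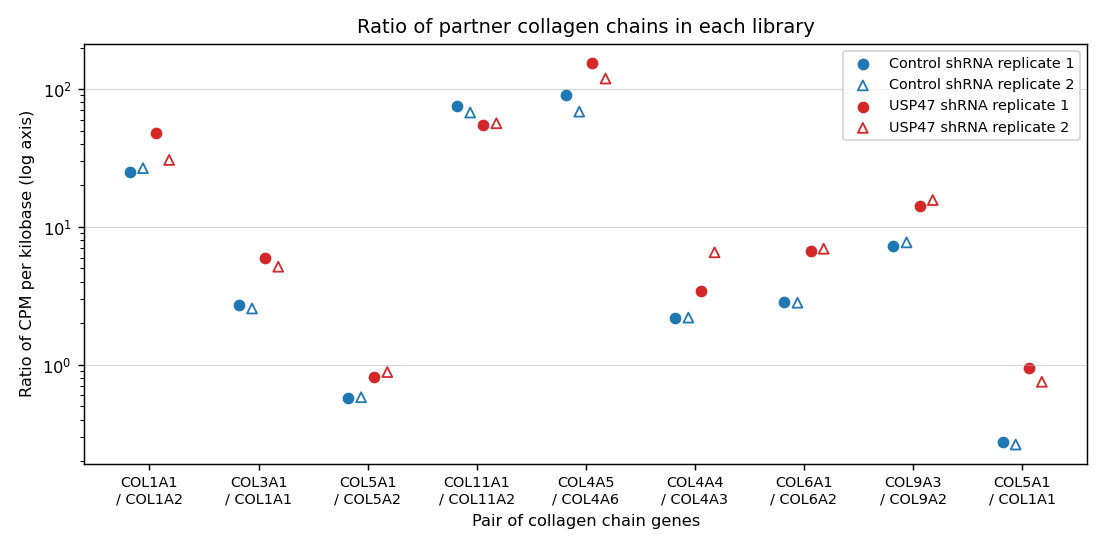
Ratio of CPM per kb between pairs of collagen chains in each library on a log axis, with blue for Control shRNA, red for USP47 shRNA, circles for replicate 1 and triangles for replicate 2. The knockdown libraries lie above both controls for each pair drawn except COL11A1 to COL11A2, where they lie below. The pairs were chosen after the levels had been seen.

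The summed collagen level did not separate the groups. All 44 genes together had 4568 and 4625 CPM in the controls and 4251 and 5502 CPM after knockdown, a mean of 4596 ± 40.7 against 4876 ± 884 (SD, n = 2; log2 ratio 0.09). Knockdown 1 lay below and knockdown 2 above both controls. Fibrillar chains made up 82.8% to 83.4% of the collagen CPM in every library. They summed to 3796 and 3859 CPM in the controls and 3522 and 4569 CPM after knockdown. Without COL3A1 the fibrillar sum was 2102 and 2148 CPM against 1741 and 2153 CPM. Type IV chains summed to 84.8 and 76.5 CPM against 65.1 and 72.7 CPM, the one class in which both knockdown libraries lay below both controls. FACIT chains summed to 354 and 353 CPM against 349 and 415 CPM, transmembrane chains to 6.25 and 6.01 CPM against 4.76 and 6.20 CPM, and the others to 327 and 331 CPM against 311 and 439 CPM.

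Within that pool the shares of the chains below were picked with the levels known, so they were not read as a result about the members. On the per-length scale COL3A1 held 42.2% and 42.0% of the collagen level in the controls and 46.7% and 48.7% after knockdown. COL1A1 held 15.5% and 16.4% against 7.89% and 9.47%. COL5A1 held 4.25% and 4.33% against 7.52% and 7.13%. For each of these genes the groups lay apart by more than the libraries of a group. Shares of a pool are tied to each other, so a fall in a chain raises the shares of the rest. The level of COL3A1 itself was not called (log2 fold change 0.30).

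The knockdown libraries differed from each other more than the controls did. The gap between replicates was wider after knockdown in 24 of the 33 members (72.7%), against 67.7% of 21917 genes. The median absolute log2 gap of the members was 0.123 between the controls and 0.301 between the knockdown libraries, where over all genes it was 0.148 and 0.261. Of the 12 called members, 7 lay farther from the controls in knockdown 1, which kept more USP47, and 5 in knockdown 2. With 2 libraries no dose relation could be tested, and a difference between hairpins cannot be told apart from one between replicates.

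Genes that modify, export, process, crosslink, degrade or bind collagen were followed as a list of 55 genes, of which 48 were tested. Of these, 5 were called higher (10.4%, background 6.52%) and 8 lower (16.7%, background 9.56%), with a median log2 fold change of -0.13. Without control 1 or control 2 none of them was called higher and 4 were called lower (over all genes 1.38% and 3.87% without control 1 and 1.79% and 4.43% without control 2), with 3 and 5 genes higher at an unadjusted p under 0.05 in edgeR's test. Without knockdown 1, 12 were higher and 11 lower, where 16.6% and 15.4% of all genes tested were, and without knockdown 2, 7 and 17 (12.4% and 15.0% of all genes). FKBP14, LOXL3 and MMP2 were called in all 4 of these fits. The hydroxylases come first in the life of a chain. Among 10 genes of prolyl hydroxylation, which stabilises the triple helix, P4HA2 rose from 16.8 and 16.9 CPM to 23.5 and 31.8 CPM (log2 fold change 0.71, SE 0.17, adjusted p = 0.018), and the other 9 were not called. Of 5 genes of lysyl hydroxylation and glycosylation, 2 rose. PLOD1, a lysyl hydroxylase, had 81.9 and 86.3 CPM in the controls and 119.7 and 141 CPM after knockdown (log2 fold change 0.63, adjusted p = 0.0127). COLGALT1, which adds galactose to hydroxylysine, had 189 and 209.7 CPM against 266 and 313 CPM (log2 fold change 0.54, adjusted p = 0.0298).

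Of 9 genes for chaperones and export, FKBP14 and SEC23A fell. FKBP14, a prolyl isomerase of the endoplasmic reticulum, had 81.9 and 78.4 CPM in the controls and 47.7 and 43.1 CPM after knockdown (log2 fold change -0.82, SE 0.13, adjusted p = 0.0033). SEC23A, a coat component of vesicles leaving the endoplasmic reticulum, had a log2 fold change of -0.54 (adjusted p = 0.018). SERPINH1, the collagen-specific chaperone HSP47, was not called at 401 and 431 CPM against 332 and 463 CPM.

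Of 7 tested genes of propeptide removal, 2 rose and 2 fell. BMP1, a C-proteinase, had 63.5 and 59.99 CPM in the controls and 78.9 and 104 CPM after knockdown (log2 fold change 0.57, adjusted p = 0.0308), and its enhancer PCOLCE 238 and 259 CPM against 308 and 433 CPM (log2 fold change 0.58, adjusted p = 0.0454). The PCOLCE fold change was 0.31 without knockdown 2, and the call was lost without either control (adjusted p = 0.394 and 0.182) and with no filter on low counts (0.0547). The N-proteinases ADAMTS2 and ADAMTS14 were called lower, with log2 fold changes of -0.50 and -0.76 (adjusted p = 0.0353 and 0.0228), and ADAMTS3 was not called (log2 fold change -0.64, adjusted p = 0.0587). PCOLCE, ADAMTS3, SERPINH1, DDR2 and ITGB1 were named after their values had been seen.

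Among the 5 lysyl oxidases, which crosslink collagen, LOXL3 fell from 11.4 and 10.8 CPM to 4.66 and 4.67 CPM (log2 fold change -1.24, SE 0.17, adjusted p = 0.0018), and the other 4 were not called. Of 4 degrading enzymes tested, MMP2, a gelatinase, fell from 28.3 and 32.1 CPM to 11.3 and 16.0 CPM (log2 fold change -1.16, SE 0.18, adjusted p = 0.00326), and the fibroblast protease FAP also fell (log2 fold change -0.74, adjusted p = 0.0138). Of 8 receptors, MRC2, which takes up collagen for lysosomal breakdown, fell from 183 and 196 CPM to 109 and 144 CPM (log2 fold change -0.58, adjusted p = 0.0294). The collagen receptor kinase DDR2, at 403 to 473 CPM, and the integrin chain ITGB1, at 239 to 290 CPM, were not called.

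**Figure D4:**
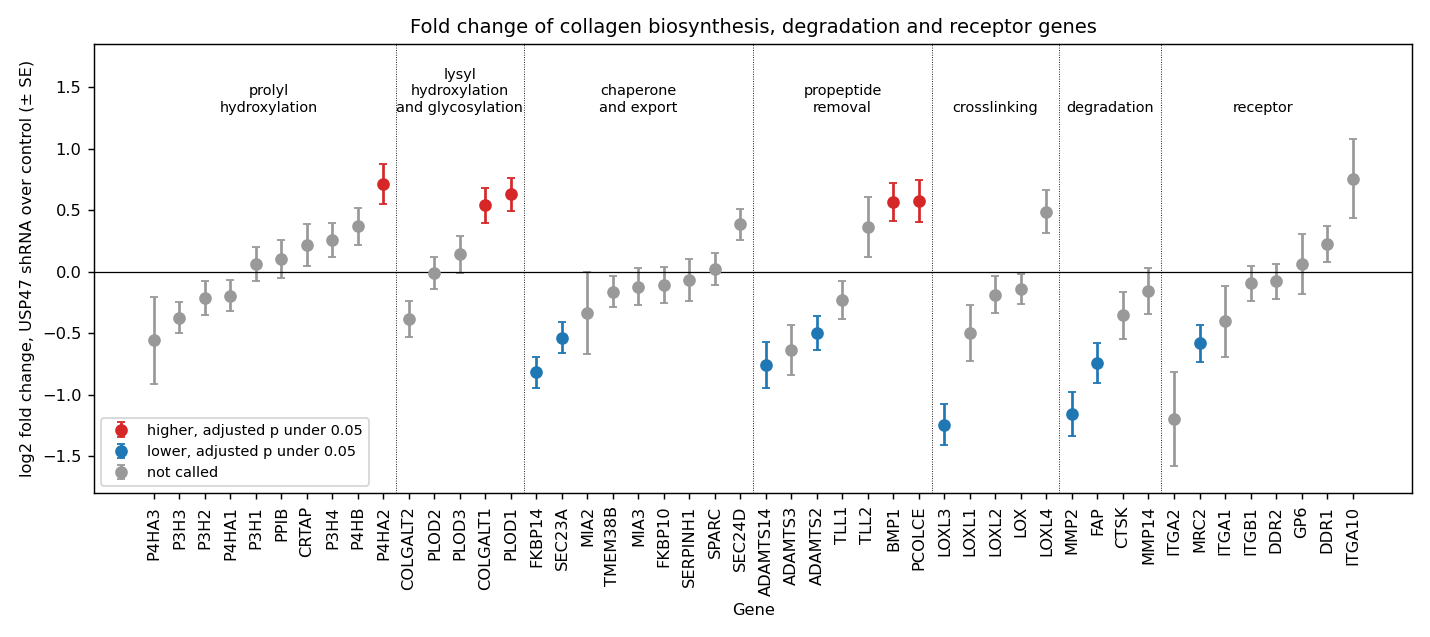
Log2 fold change, USP47 shRNA over Control shRNA, of the 48 tested genes that modify, export, process, crosslink, degrade or bind collagen, by role, with bars of 1 SE. Genes called higher (5) stand in the hydroxylation, glycosylation and propeptide roles, and genes called lower (8) in export, propeptide, crosslinking, degradation and receptor roles.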

How the data were processed

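PolyA RNA of HGC-27 cells, 2 Control shRNA and 2 USP47 shRNA libraries, was sequenced on an Illumina instrument. The labels name an ABclonal stranded kit and the study's methods a Vazyme kit. The methods speak of triplicates, and 2 libraries per group were analysed here. Per the submitters' processing notes and methods, bases under quality 20 were trimmed, reads were aligned to hg19 with STAR 2.7.5c, duplicates and low-quality reads were removed with SAMtools 1.9, and reads were counted with featureCounts. The strand setting and annotation are not given in the sources used here. The authors deposited raw counts per gene, and beside them FPKM and TPM values computed from those counts. The deposited FPKM served to recover exon lengths, and the deposited TPM served as an alternative for the class sums.

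Counts were filtered with filterByExpr, scaled with TMM and tested with edgeR 4.0.16 (glmQLFit, robust, legacy off) in R 4.3.3, with no covariate. Levels are TMM-scaled CPM per library, and group values are mean ± SD over 2 libraries. Totals of 15649899 to 20140273 counts put 1 count at 0.0481 to 0.0697 CPM for the knockdown libraries, and counts of 3 or fewer were treated as the floor, which covers counting error only. Alternatives were other scalings and filters, DESeq2 1.42.0, a minimum absolute log2 fold change of 1, a replicate block and leaving out each library. Named genes were USP47, each called collagen gene, other tested collagen genes averaging 0 or more in log2 CPM, their partner chains, and up to 3 called genes of each role. Members, lists and tests were chosen with earlier results of these data known. GRCh37 spans came from GENCODE, and upstream windows from RefSeq (GRCh38.p14). Of the listed symbols, 1 collagen-related gene and 1 endothelial marker were not matched.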

Additional observations from a re-analysis of the deposited data

How the results depend on the processing

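The count of called genes, 3527 over all genes tested, was 7419 with the replicate block (3529 higher, 3890 lower), 2288 by DESeq2's Wald test, 1216 where the log2 fold change also had to reach 1 in size, and 1233 (without control 1) to 7272 (without knockdown 1) when a library was left out. In those last fits the lone library is assumed to vary like the other group. The labels do not say whether libraries with the same replicate number were prepared together. The deviation of replicate 1 from its group mean had a correlation over genes of 0.213 between the groups. Pairing was not tested, so it is not known whether the replicate block applies. The replicate block gave 10 collagen genes higher and 12 lower, where 16.1% and 17.7% of all genes were called. It gained COL5A2, COL5A3, COL4A4, COL16A1, COL17A1, COL6A1 and COL6A6 as higher and COL4A5, COL4A6 and COL15A1 as lower. It gave 9 pathway genes higher and 13 lower. The minimum fold change left 2 collagen genes higher and 2 lower, where 1.49% and 4.05% of all genes tested were called. It left 0 pathway genes higher (0 also at an unadjusted p under 0.05, by edgeR) and 2 lower. The largest log2 fold change among the tested pathway genes was 0.75, so the fold limit alone fixed both counts of 0. Leaving out a library gave 2 to 11 collagen genes higher and 4 (without control 1) to 13 (without knockdown 2) lower, and 0 to 12 pathway genes higher and 4 to 17 lower. The 0 came without either control, where edgeR gave 3 (without control 1) and 5 higher at an unadjusted p under 0.05. DESeq2 on all 4 libraries gave 7 higher at that p.

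All 12 called collagen genes kept their sign in every fit. Of these, 8 were called in all 8 other settings that have a test over all 4 libraries and no minimum fold, and 3 of them (COL9A2, COL21A1 and COL6A2) also without each library. DESeq2's Wald test did not call COL1A2 (adjusted p = 0.192), COL13A1 (0.121) or COL20A1 (0.0887), called COL6A1 higher (0.0319) and did not call ADAMTS14 (0.0572) or ADAMTS2 (0.0988). With no filter PCOLCE was not called (0.0547). With library size alone COL24A1 was not called (0.0565), and the share of higher among called genes was 31.5% against 40.5%, with 881 higher and 1920 lower. The cause was not tested.

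Signs that turned belonged to genes not called with all 4 libraries. COL9A3 was 0.013 without control 2 and -0.17 without control 1, and COL14A1 0.33 without knockdown 1 and -1.11 without knockdown 2, called in both. COL7A1 was -0.0072 with library size alone, -0.0057 with library sizes that leave out abundant RNA (7SL copies, mitochondrial genes and the most counted unnamed identifier), and -0.052 to 0.16 without a library. COL8A2 was -0.026, -0.024 and -0.22 to 0.32, and COL26A1 -0.062, -0.060 and -0.13 to 0.17 in the same settings, with -0.029 with no filter and -0.013 with at least 10 counts in every library. SERPINH1 was 0.16 without knockdown 1 and -0.32 without knockdown 2 (called, adjusted p = 0.024), DDR2 0.0073 without control 1 and -0.17 without control 2, and ITGB1 -0.21 without knockdown 1 and 0.027 without knockdown 2. From deposited TPM the log2 ratio of the class sum was -0.36 for type IV and -0.034 for FACIT chains. Without a library it ran from -0.11 to 0.27 for all collagens, -0.12 to 0.26 for fibrillar, -0.31 to -0.14 for type IV, -0.014 to 0.24 for FACIT, -0.36 to 0.025 for transmembrane and -0.076 to 0.42 for other chains, lowest without knockdown 2 and highest without knockdown 1. USP47 ran from -1.75 to -1.01. With 2 libraries per group, changes of low-count chains are limited by counting error.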
